A study of Mus musculus with 16 samples.

Results

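Insulin leaves the β cell by calcium-triggered fusion of secretory granules with the plasma membrane, and 9 genes of that machinery were followed here across every islet library of the study. They were taken by symbol from a table of 17361 genes for mice on a chow diet and a table of 17318 genes for mice on a high-fat diet (HFD), and all 9 were present in both. Stx1a and Snap25 encode the target-membrane SNARE proteins syntaxin 1A and SNAP-25, and Vamp2 encodes the vesicle SNARE synaptobrevin. Syt7 and Syt13 encode synaptotagmins, a family that holds the calcium sensors of fusion. Unc13a encodes the priming factor Munc13-1 and Rims2 the scaffold RIM2, while Rab3a encodes a granule-bound GTPase and Rph3al the Rab3 and Rab27 effector Noc2.

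SNARE proteins on the granule and on the plasma membrane zip into a bundle that pulls both membranes together. Priming factors set granules ready for release, synaptotagmins couple fusion to the rise in calcium, and Rab GTPases with their effectors bring granules to the membrane and hold them there. The same machinery serves neurons, and acinar cells of the pancreas release their zymogen granules with a related but partly different set of proteins.

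RNA was sequenced from islets of 4 groups with 4 libraries each. Flox mice were homozygous for a B7-H4 (Vtcn1) allele with exon 2 between loxP sites, on a C57BL/6J background, and cKO mice carried this allele together with Rip-Cre, a Cre recombinase under the rat insulin II promoter, which the study names as β-cell specific. Both were fed chow, and the labels give neither their age nor their sex. No library of mice with Rip-Cre alone was among the 16, so the effect of the deletion and that of the Cre transgene cannot be told apart. H-ins2-C and H-ins2-O mice were 6 weeks old when HFD began, received virus into the pancreatic duct after 8 weeks of diet and gave islets 5 weeks later. H-ins2-C mice received a control AAV, and H-ins2-O mice an AAV2/8 with B7-H4 and ZSGreen under the rat Ins2 promoter. The design text calls these mice WT and the methods call them Flox.

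The libraries differed most in acinar RNA. Acinar marker genes, 20 of 21 listed, made up 28.0%, 35.9%, 10.9% and 7.55% of the summed FPKM (fragments scaled to gene length and to mapped reads) in flox16, flox17, flox20 and flox21, and 36.9 to 46.6% in the cKO libraries. Their share was 5.56%, 57.7%, 74.9% and 2.18% in H-ins2-C1, H-ins2-C2, H-ins2-C3 and H-ins2-C5, and 11.2 to 14.6% in the H-ins2-O libraries. Beta marker genes took 25.8 to 54.7% in the chow libraries and 4.37 to 55.0% in the HFD libraries. Alpha marker genes took 13.6% in H-ins2-C5 and no more than 4.35% elsewhere. Peripheral neuron markers, listed because neurons also use this machinery, held at most 0.00211% in any library. Of the 10 markers, 0 to 6 were at 0 FPKM in Flox libraries and 0 to 8 in cKO libraries. In H-ins2-C libraries 3 to 8 of them were at 0 FPKM, and in every H-ins2-O library 0 were. Vtcn1 stood at 0.0188 to 0.216 FPKM in the Flox libraries and 0.0202 to 0.125 FPKM in the cKO libraries, too low to check the deletion, and at 40.0 to 128 FPKM in the H-ins2-O libraries against 0.0636 to 0.371 FPKM in the H-ins2-C libraries. Read totals are not in the tables, so that depth and counting error are unknown.

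The 9 genes spanned about 2 orders of magnitude in length-normalised level. Over all 16 libraries the median level was 245 FPKM for Syt13, 75.0 for Vamp2, 52.8 for Rab3a, 39.1 for Snap25, 24.3 for Rph3al, 24.0 for Syt7, 12.8 for Unc13a, 3.04 for Stx1a and 2.21 for Rims2. Syt13 alone made up 39.2 to 56.9% of the summed FPKM of the 9 genes. Neighbours in this order kept their places in 16 of 16 libraries, except that Rab3a was above Snap25 in 13 of 16 and Rph3al above Syt7 in 8 of 16. The order of these last pairs was therefore not separated from the spread between libraries.

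**Figure D1:**
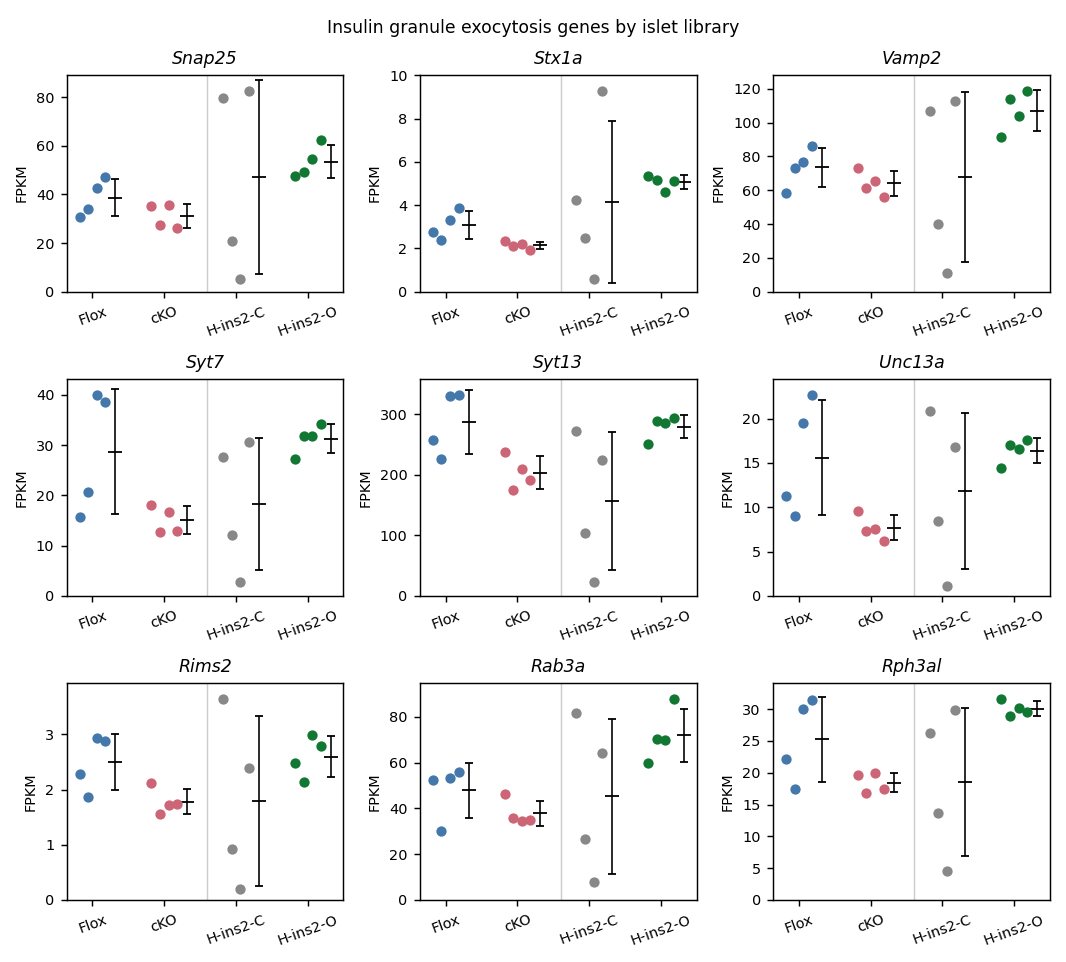
FPKM of each of the 9 exocytosis genes (vertical axes, linear, from 0) in every library, with 1 point a library and, beside each group of 4, a bar for the mean with its SD. The H-ins2-C points lie far apart for every gene, with H-ins2-C3 lowest in all 9 panels, and the chow and HFD tables, split by the grey line, were normalised separately.

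The summed FPKM of the 9 genes was, within each table, lower in the libraries with an acinar share of 28.0% or more than in those with 14.6% or less. The sum was 454, 414, 599 and 620 FPKM in flox16, flox17, flox20 and flox21, and 444, 339, 392 and 349 FPKM in CKO8, CKO9, CKO12 and CKO38. Thus flox20 and flox21, the chow libraries with the least acinar RNA, had the highest sums, and flox16 and flox17 lay close to the upper end of the cKO libraries. In the HFD table the sum was 624, 228, 55.6 and 574 FPKM in H-ins2-C1, H-ins2-C2, H-ins2-C3 and H-ins2-C5, and 532, 607, 601 and 652 FPKM in H-ins2-O1 to H-ins2-O4. Both H-ins2-C libraries rich in acinar RNA were far below all others, and the remaining pair lay among the H-ins2-O libraries. Among the libraries with the lower shares the sum did not follow the share, since H-ins2-C5, with the lowest share of the HFD libraries, was below H-ins2-O2, H-ins2-O3 and H-ins2-O4. In bulk islets, fewer endocrine cells and less RNA of these genes per endocrine cell cannot be told apart. For that reason each gene is also given as a percentage of an endocrine reference, the geometric mean FPKM of 13 genes that endocrine islet cells share, such as Chga, Scg3, Cpe, Neurod1 and Pax6. In cKO islets 12 of these 13 had log2 fold changes below 0, with a median of -0.53, and Chgb alone was above, at 0.93 (limma adjusted p = 0.108).

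**Figure D2:**
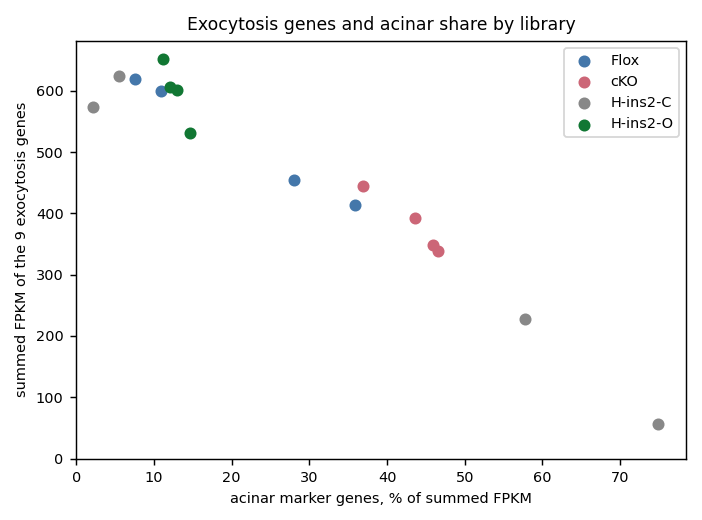
Summed FPKM of the 9 exocytosis genes (vertical axis) against the share of summed FPKM in acinar marker genes (horizontal axis, %), with 1 point a library coloured by group. The sum runs from 652 FPKM at 11.2% acinar share to 55.6 FPKM at 74.9%, and the 4 cKO libraries lie at 36.9 to 46.6%.

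In cKO islets, 2 of the 9 genes were lower than in Flox islets at a limma adjusted p under 0.05, Unc13a and Syt13, where 12.8% of all 11804 genes tested were called lower and 1.02% higher, or 13.8% together. An unadjusted p under 0.05 was reached by 5 of 9, as by 41.5% of all genes. None of the 9 also passed the absolute log2 fold change of 1 that the study used, as 1.31% of all genes did. The fold changes, on the log2(FPKM + 0.5) scale, were below 0 for 9 of 9 genes, as for 86.9% of all genes, and their median was -0.41 beside -0.34 over all genes tested. The 2 calls are thus close to the general level of the table, and Unc13a and Syt7 were the genes furthest below its median. Which libraries entered decided the count. It was 7 without flox17 and 0 without flox20, without flox21, without CKO9, without CKO12 or without CKO38, and also 0 without both flox20 and flox21, when 0.0257% of all genes were called. With the 3 libraries a group of the study's heatmaps, which leave out flox17 and CKO8, 7 of 9 were called lower, as were 66.1% of all genes in either direction. After endocrine scaling, in which each library was divided by its endocrine reference, none of the 9 genes was called and 1 had an unadjusted p under 0.05, and 1.36% of all genes were called, 122 higher and 39 lower against 120 higher and 1511 lower as deposited. In a fit with acinar share as covariate none of the 9 was called, and 0 of all 11804 genes were, and the groups differ in that share as given above.

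Unc13a showed the largest difference of the 9. Munc13-1 opens syntaxin 1A and so readies docked granules for fusion. Its level was 11.3, 8.96, 19.5 and 22.7 FPKM in flox16, flox17, flox20 and flox21, and 9.63, 7.37, 7.49 and 6.24 FPKM in CKO8, CKO9, CKO12 and CKO38. Both acinar-poor Flox libraries were well above the rest, and flox17 fell inside the cKO range. The means were 15.6 ± 6.52 FPKM (SD, n = 4) in Flox and 7.68 ± 1.41 FPKM (SD, n = 4) in cKO islets, with a log2 fold change of -0.90 (SE 0.25, 95% interval -1.44 to -0.36, limma adjusted p = 0.0362). The call was made in 3 of 8 fits that left out 1 library, with adjusted p from 0.00413 to 0.113, and without flox20 and flox21 the log2 fold change was -0.38 (adjusted p = 0.514). As a share of the endocrine reference, Unc13a was 4.06%, 3.83%, 5.88% and 6.67% in the same Flox libraries and 3.73%, 3.82%, 3.46% and 3.09% in the cKO libraries. On this measure, which was set against the group ranges after the values were seen, the groups did not overlap, although flox17 and CKO9 were next to each other, and 4.52% of all genes tested were lower without overlap and 8.64% higher. After endocrine scaling the log2 fold change was -0.48 (SE 0.17, 95% interval -0.85 to -0.10, limma adjusted p = 0.119), which misses the threshold.

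The exons of Unc13a share 495 bases with those of Colgalt1 on the opposite strand, and whether strand was used in counting is not given in the sources used here. In the HFD table Unc13a was at 20.9, 8.49, 1.06 and 16.8 FPKM in H-ins2-C1, H-ins2-C2, H-ins2-C3 and H-ins2-C5 and at 14.4 to 17.6 FPKM in the H-ins2-O libraries. Its log2 fold change of 0.99 (SE 0.63, 95% interval -0.32 to 2.30, limma adjusted p = 0.591) had an interval that covers both directions.

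RefSeq windows of 250 bases before to 50 bases after the start site were at hand for 4 of the 9 genes, and the 120 bases before the start are shown for each, since Unc13a gave the largest difference and the other 3 serve to compare. They are read on the strand of the gene in GRCm38.p6, and capitals mark the GC box GGGCGG and TGACG, the core of the cAMP response element, each searched on both strands, where a match across the start site shows only its first base.
Unc13a, chr8:71671758-71671877, minus strand: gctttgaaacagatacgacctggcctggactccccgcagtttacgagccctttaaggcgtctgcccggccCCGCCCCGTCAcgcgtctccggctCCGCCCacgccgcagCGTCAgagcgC
Stx1a, chr5:135023362-135023481, plus strand: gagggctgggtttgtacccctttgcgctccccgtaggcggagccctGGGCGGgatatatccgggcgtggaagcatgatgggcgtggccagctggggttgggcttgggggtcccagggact
Rab3a, chr8:70754583-70754702, plus strand: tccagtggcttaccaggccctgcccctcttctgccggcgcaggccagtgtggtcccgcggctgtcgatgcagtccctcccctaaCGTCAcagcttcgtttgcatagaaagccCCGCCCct
Rph3al, chr11:75925892-75926011, minus strand: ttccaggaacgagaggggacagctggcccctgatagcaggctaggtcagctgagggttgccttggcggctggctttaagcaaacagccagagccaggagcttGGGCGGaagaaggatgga

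All 4 genes held a GC box in the whole window, as 35.7% of 32851 windows did, and 3 held TGACG, as 20.8% did. The TATA box TATAAA was in none of the 4 and in 13.6% of all windows, and CCAAT was in 1 of the 4, Rab3a, and in 37.4%. The windows of Unc13a, Stx1a and Rab3a held 27, 19 and 18 CpG beside a median of 7 over all windows, and that of Rph3al held 5. Fewer CpG were in 84.5%, 71.9%, 70.3% and 38.0% of all windows, in this order of genes. The Rph3al window belongs to a start inside the gene, whose model begins at chr11:75938429 on the minus strand. A window at that outer start was not examined. Rab3a has another start further along the gene, whose window held 22 CpG. Just after its start, Unc13a alone of these genes carried both parts of the RE1 element, the binding sequence of the neuronal gene repressor REST, as TTCAGCACC and GGACAGCGC on the opposite strand with a gap of at most 12 bases, which 0.0122% of windows held. The capitals mark both parts, which lie 8 bases apart, within the gap of up to 12 bases that the search allowed.
Unc13a, chr8:71671727-71671752, minus strand: GCGCTGTCCgcgcccccGGTGCTGAA
Rest, the gene of that repressor, was between 0.132 and 0.444 FPKM in all 16 libraries. A match of letters is a description of the window and no measurement of binding.

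Rims2, which tethers granules at release sites through Rab3 and Munc13, was the lowest of the 9 genes, at 1.87 to 2.94 FPKM in Flox, 1.56 to 2.11 FPKM in cKO, 0.197 to 3.64 FPKM in H-ins2-C and 2.14 to 2.98 FPKM in H-ins2-O libraries. It was among the steadiest of the 9 against the endocrine reference in chow islets, at 0.799 to 0.889% in Flox and 0.796 to 0.858% in cKO libraries. The log2 fold change in cKO islets was -0.38 as deposited (95% interval -0.78 to 0.017, limma adjusted p = 0.133) and -0.027 after endocrine scaling (95% interval -0.23 to 0.18).

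Syt13 was the most abundant of the 9 genes and the other one called lower in cKO islets. It encodes an atypical synaptotagmin that lacks the residues which bind calcium. Its level was 258, 226, 330 and 332 FPKM in flox16, flox17, flox20 and flox21, and 238, 174, 209 and 191 FPKM in CKO8, CKO9, CKO12 and CKO38. The groups overlapped only through flox17 and CKO8, with means of 287 ± 52.9 FPKM (SD, n = 4) and 203 ± 27.1 FPKM (SD, n = 4). The log2 fold change was -0.49 (SE 0.15, 95% interval -0.79 to -0.19, limma adjusted p = 0.0368), and 3 of 8 fits without 1 library kept the call, with adjusted p from 0.00399 to 0.145. Relative to the endocrine reference Syt13 stood at 92.7%, 96.7%, 99.8% and 97.4% in the Flox libraries and at 92.0%, 90.3%, 96.3% and 94.5% in the cKO libraries. On that scale the log2 fold change was -0.051 (95% interval -0.24 to 0.14, limma adjusted p = 0.745).

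In the HFD table Syt13 was at 273, 103, 22.6 and 225 FPKM in H-ins2-C1, H-ins2-C2, H-ins2-C3 and H-ins2-C5, and at 251, 289, 285 and 293 FPKM in H-ins2-O1 to H-ins2-O4. Of the 9 genes it had the largest log2 fold change in H-ins2-O islets, 1.35 (SE 0.58, 95% interval 0.13 to 2.56), and it alone had an unadjusted p under 0.05, as 6.41% of all genes did, with a limma adjusted p of 0.591. After endocrine scaling the value was 0.14 (95% interval -0.47 to 0.75). The share of the endocrine reference was 62.3 to 76.8% in H-ins2-C and 71.9 to 82.8% in H-ins2-O libraries, all below the 90.3 to 99.8% of the chow libraries. The ratio is formed within a library, but diet, virus and sequencing differ together between the tables, and the difference between the tables was not tested.

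Syt7, a high-affinity calcium sensor of granule fusion, varied most among the chow libraries with Unc13a. It was at 15.6, 20.6, 40.0 and 38.5 FPKM in flox16, flox17, flox20 and flox21, against 18.1, 12.7, 16.6 and 12.8 FPKM in CKO8, CKO9, CKO12 and CKO38. As with Unc13a, flox20 and flox21 stood apart from the other Flox libraries, the highest of the 4 being 2.57 times the lowest, while flox16 lay within the cKO range. For Syt7 the log2 fold change was -0.82 (SE 0.28, 95% interval -1.43 to -0.21), with a limma adjusted p of 0.0617 that misses the threshold, and without flox20 and flox21 it was -0.26 (adjusted p = 0.622). The contrast among the Flox libraries remained against the endocrine reference, with 5.59% and 8.81% in flox16 and flox17, 12.1% and 11.3% in flox20 and flox21, and 6.33 to 7.66% in the cKO libraries. The scaled log2 fold change was -0.39 (95% interval -0.87 to 0.088, limma adjusted p = 0.281). In HFD islets the same share was narrow, 7.75 to 8.97% in H-ins2-C and 7.80 to 9.64% in H-ins2-O libraries, although the FPKM of Syt7 in the H-ins2-C libraries ran from 2.69 to 30.6. Exons of Syt7 share 384 bases with the opposite-strand gene Gm26859.

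**Figure D3:**
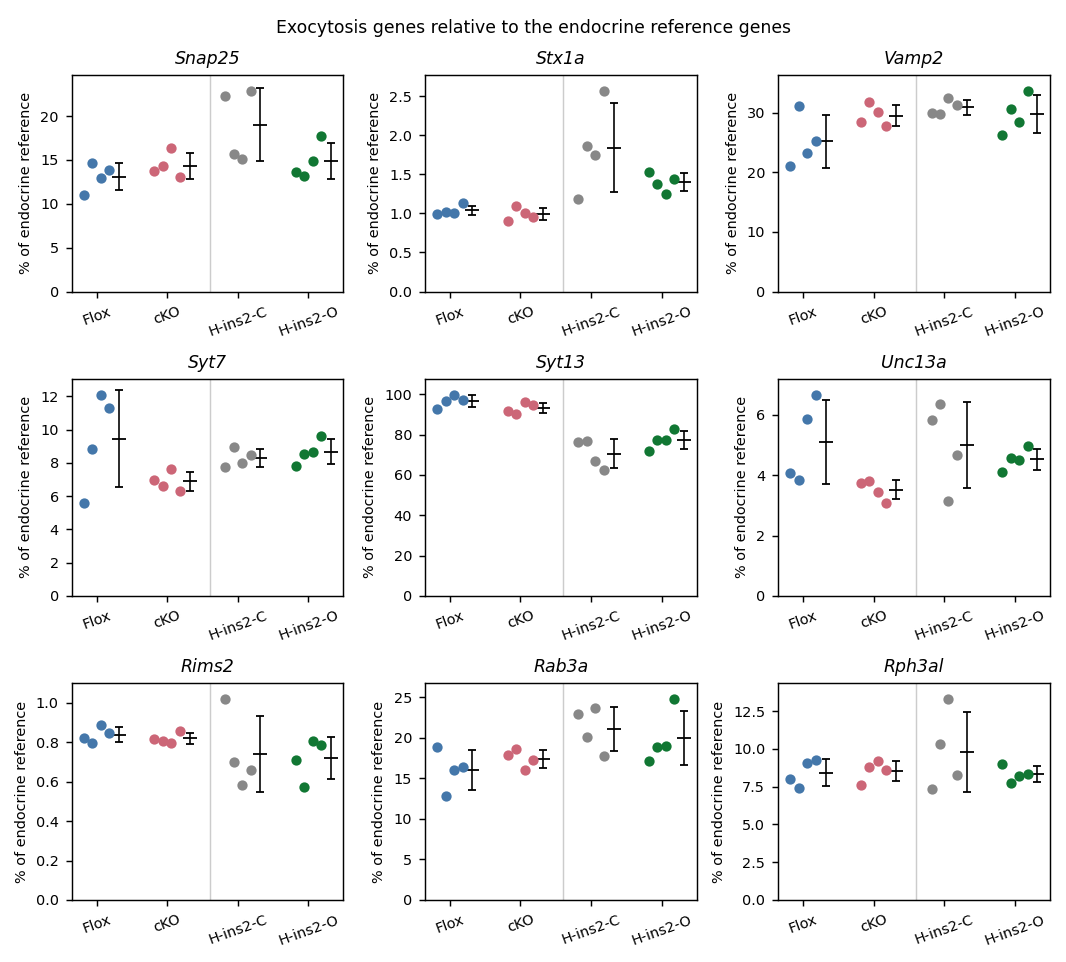
Each of the 9 exocytosis genes as a percentage of the endocrine reference (vertical axes, linear, from 0) in every library, with the mean and SD of each group of 4 beside its points. The H-ins2-C points lie closer together than in FPKM, Unc13a and Syt7 are highest in flox20 and flox21 of the chow libraries, and Syt13 lies at 90.3 to 99.8% in chow libraries and at 62.3 to 82.8% in HFD libraries.

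The SNARE genes were each lower in the mean of the cKO libraries, and none was called. Stx1a was at 2.76, 2.39, 3.33 and 3.85 FPKM in flox16, flox17, flox20 and flox21, against 2.33, 2.10, 2.18 and 1.94 FPKM in CKO8, CKO9, CKO12 and CKO38. It was the only one of the 9 whose groups did not overlap, lower as for 15.4% of all genes, beside 1.32% that were higher without overlap, although flox17 and CKO8 were close. Its log2 fold change was -0.43 (SE 0.19, 95% interval -0.82 to -0.031, limma adjusted p = 0.101) and, after endocrine scaling, -0.057 (95% interval -0.27 to 0.16, limma adjusted p = 0.751).

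Snap25 was at 30.7 to 47.4 FPKM in Flox and 26.2 to 35.6 FPKM in cKO libraries, and Vamp2 at 58.5 to 86.2 FPKM and 56.2 to 73.3 FPKM. The log2 fold change of Snap25 was -0.30 (95% interval -0.67 to 0.073, limma adjusted p = 0.191) as deposited and 0.13 after endocrine scaling, a change of sign. Vamp2 likewise went from -0.19 (95% interval -0.52 to 0.13, limma adjusted p = 0.324) to 0.24 (95% interval -0.028 to 0.51). Neither gene was called in any of the 21 alternatives in this comparison.

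Under HFD the SNARE genes diverged among the control-virus libraries. Snap25 was at 79.8, 20.9, 5.08 and 82.8 FPKM in H-ins2-C1, H-ins2-C2, H-ins2-C3 and H-ins2-C5, and at 47.6, 49.1, 54.7 and 62.5 FPKM in H-ins2-O1 to H-ins2-O4. The acinar-poor libraries H-ins2-C1 and H-ins2-C5 were above every H-ins2-O library, and the acinar-rich H-ins2-C2 and H-ins2-C3 were below. Over all 8 libraries the log2 fold change was 0.84 (SE 0.66, 95% interval -0.55 to 2.24, limma adjusted p = 0.597). Without H-ins2-C2 and H-ins2-C3, an alternative chosen after the data were seen, it turned to -0.61 (SE 0.12, 95% interval -0.90 to -0.32, limma adjusted p = 0.0148), a call that 24.3% of all genes then also received and that leaves 2 control libraries. As a share of the endocrine reference, Snap25 was 22.3% and 22.9% in H-ins2-C1 and H-ins2-C5, 15.7% and 15.1% in H-ins2-C2 and H-ins2-C3, and 13.2 to 17.7% in the H-ins2-O libraries.

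Stx1a was at 4.23, 2.48, 0.592 and 9.29 FPKM in the same control libraries and at 4.60 to 5.35 FPKM in the H-ins2-O libraries. H-ins2-C5, the library with an alpha marker share of 13.6%, was the highest of all 16, also against the endocrine reference, at 2.57% beside 1.18 to 1.86% in the other control libraries and 1.25 to 1.53% in the H-ins2-O libraries. The part of alpha cells in this value was not tested. Stx1a had a log2 fold change of 0.66 (SE 0.53, 95% interval -0.45 to 1.77, limma adjusted p = 0.599).

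Vamp2 was at 107, 39.8, 10.9 and 113 FPKM in the control libraries and at 91.8 to 119 FPKM in the H-ins2-O libraries, a log2 fold change of 1.14 (SE 0.58, 95% interval -0.066 to 2.35, limma adjusted p = 0.591). Against the endocrine reference it was nearly level in the control group, at 30.0%, 29.8%, 32.4% and 31.3%, so that a 10.3-fold range of FPKM shrank to a 1.09-fold range. The scaled log2 fold change was -0.058 (95% interval -0.58 to 0.46).

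The genes of the Rab3 branch were also lower in the mean of the cKO libraries, with no call. Rab3a was at 52.6, 30.0, 53.1 and 55.8 FPKM in flox16, flox17, flox20 and flox21, against 46.2, 35.8, 34.7 and 34.9 FPKM in CKO8, CKO9, CKO12 and CKO38. Within each group 1 library stood apart, flox17 below the other Flox libraries and CKO8 above the other cKO libraries, and these are the libraries that the heatmaps leave out. Its log2 fold change was -0.30 (95% interval -0.70 to 0.10, limma adjusted p = 0.215) with all 8 libraries, -0.61 (95% interval -0.79 to -0.42, limma adjusted p = 0.00251) with the 6 of the heatmaps, and 0.13 (95% interval -0.13 to 0.39) after endocrine scaling of all 8. Exons of Rab3a share 29 bases with Mpv17l2 on the opposite strand.

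In HFD islets Rab3a was at 81.9, 26.8, 8.00 and 64.4 FPKM in the control libraries and at 60.0 to 87.8 FPKM in the H-ins2-O libraries, with a log2 fold change of 1.10 (95% interval -0.09 to 2.30, limma adjusted p = 0.591). Rph3al was at 17.4 to 31.5 FPKM in Flox, 16.9 to 19.9 FPKM in cKO, 4.48 to 29.8 FPKM in H-ins2-C and 28.9 to 31.6 FPKM in H-ins2-O libraries. Its log2 fold change in cKO islets was -0.41 (95% interval -0.80 to -0.011, limma adjusted p = 0.114), and it reached 0.021 after endocrine scaling. In H-ins2-O islets it was 0.98 (95% interval -0.12 to 2.07, limma adjusted p = 0.591).

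**Figure D4:**
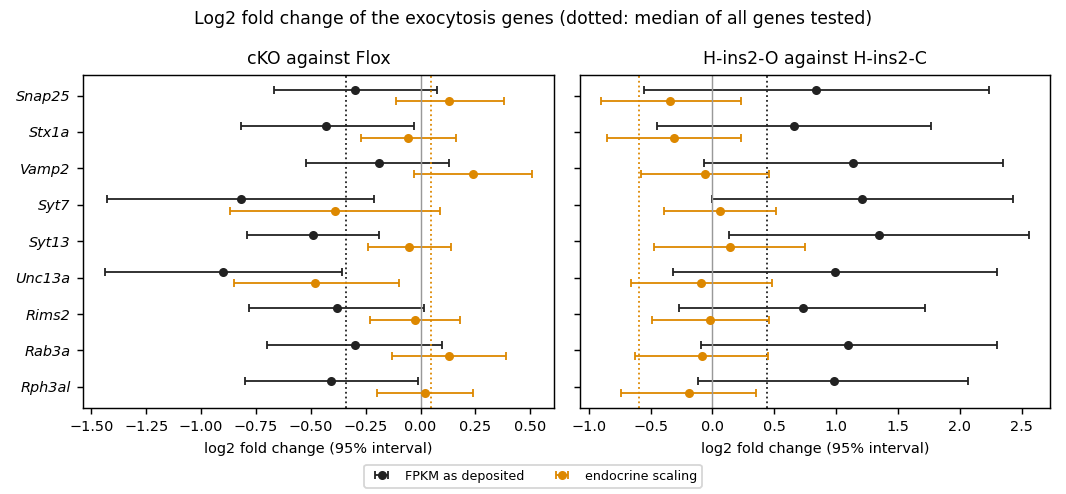
Log2 fold change of each of the 9 exocytosis genes (horizontal axes) with its 95% interval from limma, for FPKM as deposited and after endocrine scaling, with dotted lines at the median of all genes tested. In cKO against Flox, the scaled values of 7 genes lie between -0.057 and 0.24, with Unc13a at -0.48 and Syt7 at -0.39, and in H-ins2-O against H-ins2-C every interval but that of Syt13 as deposited includes 0.

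In H-ins2-O islets, none of the 9 genes was called against H-ins2-C islets, with limma adjusted p from 0.591 to 0.599, where 0.033% of all 12132 genes tested were called. The log2 fold changes were above 0 for 9 of 9 genes, as for 84.2% of all genes, with a median of 0.99 beside 0.44 over all genes tested. Every group pair overlapped, since H-ins2-C1 or H-ins2-C5 reached into or above the H-ins2-O range in each case, and 5.61% of all genes were higher and 0.964% lower without overlap. After endocrine scaling the values lay between -0.34 and 0.14 with a median of -0.088, beside -0.59 over all genes tested, and again none of the 9 was called, as 0.0246% of all genes were, and none had an unadjusted p under 0.05. As shares of the endocrine reference, the groups overlapped for all 9 genes, where 34.5% of all genes were lower and 0.635% higher in H-ins2-O libraries without overlap. In simulated data with the same spread per gene, 0 of 98 genes given a log2 change of 1 and 27 of 95 given a change of 2 were called, against 67 of 92 and 99 of 102 with the spread of the chow libraries. With the chow spread 13 unchanged genes were called, and with the HFD spread 0. The noise was independent between genes and libraries, without the acinar gradient that the real libraries share. These rates therefore cannot be carried over to the real comparisons.

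Among 55 further genes of regulated exocytosis, 45 were tested in each comparison. In cKO islets 9 of the 45 were called lower and 0 higher, with 25 at an unadjusted p under 0.05, and the median log2 fold change was -0.42. Over all genes tested 12.8% were called lower, 41.5% had an unadjusted p under 0.05 and the median was -0.34. The called genes included 6 of 13 tested in the list of Rab GTPases, effectors and exchange factors, with a list median of -0.64. Called too were 1 of 13 SNAREs and SNARE regulators and 2 of 9 synaptotagmins and other calcium sensors. Of 10 priming and active zone genes, 0 were called. After endocrine scaling 1 of the 45 was called lower, in the Rab list, and the median was -0.013, where 1.36% of all genes were called and the median was 0.046.

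Sytl4, or granuphilin, which docks insulin granules through Rab27a and syntaxin, was the clearest of them. It stood at 76.1, 63.7 and 90.9 FPKM in flox16, flox17 and flox20 and higher still in flox21, against 53.6, 41.3, 41.4 and 37.9 FPKM in CKO8, CKO9, CKO12 and CKO38. No cKO library reached the lowest Flox library, and the log2 fold change was -0.91 (SE 0.17, limma adjusted p = 0.0122), called in 7 of 8 fits without 1 library and in 16 of 21 alternatives. Its GTPase partner Rab27a had a log2 fold change of -0.73 (limma adjusted p = 0.0407), and the effector Sytl5 of -0.85 (adjusted p = 0.0248). Rab3b, a relative of Rab3a, went from 4.26 to 10.2 FPKM in Flox to 2.29 to 4.40 FPKM in cKO libraries (limma adjusted p = 0.0277). Rapgef4, which encodes the cAMP sensor Epac2, had -0.65 (adjusted p = 0.0363), and Rab3ip, an exchange factor of Rab proteins, -0.64 (adjusted p = 0.0400). These calls were less stable than that of Sytl4. Rab27a, Sytl5, Rapgef4 and Rab3ip were each called in 3 of 8 fits without 1 library, with limma adjusted p up to 0.143. Rab3b was called in 4 of 8. Among the 21 alternatives Rab27a and Rapgef4 were called in 8, Sytl5 and Rab3ip in 9 and Rab3b in 10. The highest limma adjusted p there was 0.844 to 0.978 for these genes, beside 0.56 for Sytl4. As given above for the whole list, at most 1 of the further genes kept a call after endocrine scaling.

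Of the calcium sensors, Syt4 was lower by a log2 fold change of -0.93 (limma adjusted p = 0.0175), from 17.0 to 35.1 FPKM in Flox to 12.2 to 15.1 FPKM in cKO libraries. Doc2b was lower by -0.76 (limma adjusted p = 0.0349), near the limit of 0.5 FPKM for testing. It was at 0.659 to 1.56 FPKM in Flox and 0.243 to 0.677 FPKM in cKO libraries, so that the groups overlapped. Stxbp3, the Munc18c partner of syntaxin 4, had -0.71 (adjusted p = 0.0312). Syt4 and Doc2b were called in 4 of 8 fits without 1 library, and Stxbp3 in 3 of 8. Among all alternatives Syt4 was called in 11 of 21, Stxbp3 in 9 of 21 and Doc2b in 8 of 20. The highest limma adjusted p there was 0.779, 0.842 and 0.938. The most abundant genes of the remaining roles were not called, namely Napa and Cplx2 at -0.50 and -0.47, Syt5 at -0.42, and Rims3 and Rimbp2 at -0.53 and -0.32 on the log2 scale. In H-ins2-O islets 0 of the 45 were called by limma, 12 had an unadjusted p under 0.05, and 45 of 45 values were above 0, with a median of 0.88. Over all genes tested 6.41% had an unadjusted p under 0.05 and 84.2% were above 0, with a median of 0.44. After endocrine scaling 46 of the further genes were tested and 0 were called by limma, with 3 at an unadjusted p under 0.05, and their median was -0.19 beside -0.59 over all genes.

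Of 10 listed genes of zymogen granule exocytosis, which acinar cells use, 9 were tested and 0 were called by limma in either comparison, with 2 at an unadjusted p under 0.05 in cKO islets and 0 in H-ins2-O islets. In cKO islets 5 of the 9 had log2 fold changes below 0, with a median of -0.26 beside -0.34 over all genes, and endocrine scaling turned the median to 0.18. In H-ins2-O islets 7 of the 9 were above 0, with a median of 0.28 beside 0.44 over all genes, and endocrine scaling turned the median to -0.83. Their summed FPKM, mostly Sycn, the granule protein syncollin, was 1111 to 6342 in Flox, 5462 to 8123 in cKO, 686 to 25038 in H-ins2-C and 2438 to 2863 in H-ins2-O libraries. Most of the list did not rise in FPKM between an acinar-poor and an acinar-rich H-ins2-C library. From H-ins2-C1 to H-ins2-C3, with acinar shares of 5.56% and 74.9%, Sycn went from 1031 to 24933 FPKM. Rab27b went from 0.266 to 1.45 FPKM between them. The other listed genes were lower in H-ins2-C3, such as Snap23, at 12.4 and 2.66 FPKM, and Vamp8, at 64.9 and 51.5 FPKM. The median FPKM of all genes also fell between these libraries, from 3.29 to 0.779, a wider relative fall than that of Vamp8. Rab3d was at 39.9 to 50.5 FPKM in Flox and 50.7 to 52.9 FPKM in cKO libraries. Sytl1 was at 11.6 to 15.0 FPKM and 15.5 to 18.3 FPKM. Both were higher in cKO libraries without overlap, as 1.32% of all genes were, and Vamp8 was lower, as 15.4% were. How far the list follows acinar RNA was not tested. Sycn had a log2 fold change of 1.51 in cKO islets (limma adjusted p = 0.132), and Vamp8, the vesicle SNARE of zymogen granules, of -0.26 (adjusted p = 0.172).

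**Figure D5:**
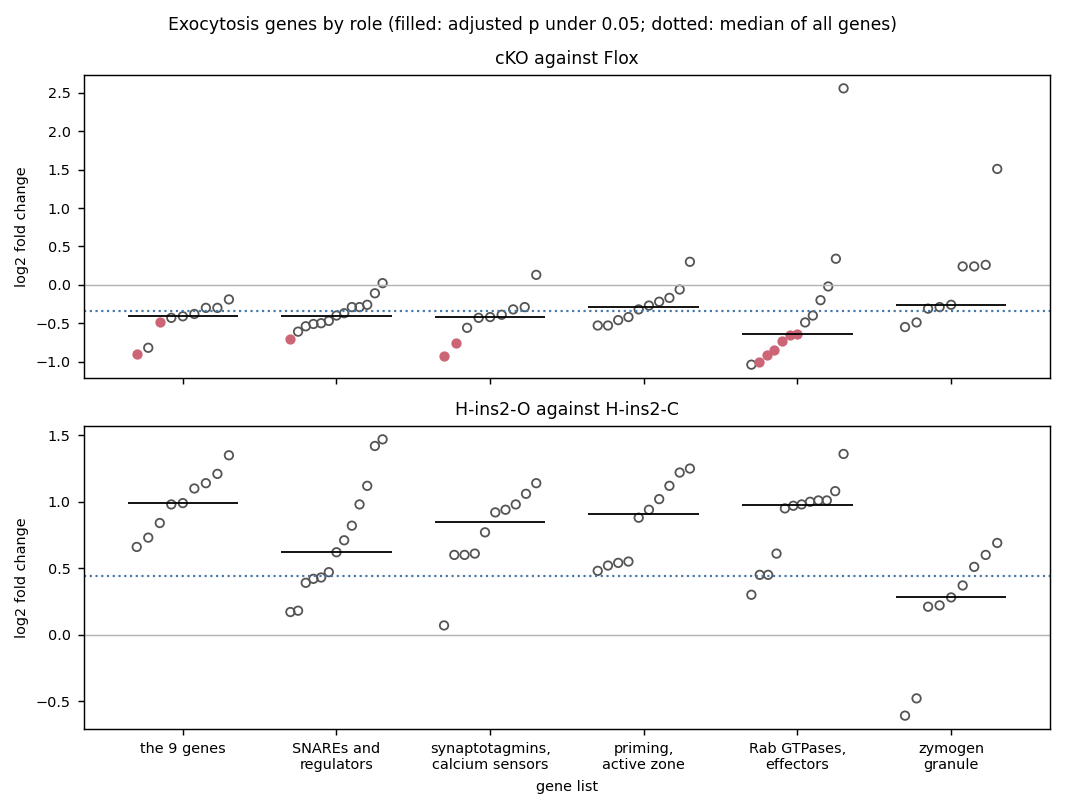
Log2 fold change (vertical axes) of the 9 exocytosis genes, of 4 role groups of further exocytosis genes and of the zymogen granule genes, with 1 point a gene, filled where the limma adjusted p is under 0.05, a bar at each list median and a dotted line at the median of all genes tested. In cKO islets the filled points are Unc13a and Syt13 of the 9 and 9 further genes, 6 of them in the Rab list, and in H-ins2-O islets none is filled.

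The 9 genes were also set against their common mean, by Pearson's r over the 8 libraries of each table, with the log2 values of each gene first centred and divided by their SD. Rab3a and Vamp2 followed that mean least in the chow table, with r of 0.807 and 0.823, and Unc13a most, with 0.989. In the HFD table r was between 0.946 for Stx1a and 0.998 for Vamp2. The libraries share the acinar gradient described above, each gene is part of the mean it is set against, and these values describe likeness over 8 libraries only.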

How the data were processed

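The authors sequenced islet RNA on an Illumina NovaSeq and deposited FPKM, with the chow libraries in one table and the HFD libraries in another. The labels name the build mm10. The aligner, counter, strand setting and read totals are not given in the sources used here, so no counting error could be computed. Columns were matched to libraries through their labels.

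Each table was tested on its own. limma 3.58.1 (R 4.3.3) was fitted to log2(FPKM + 0.5) of genes whose mean reached 0.5 FPKM, using a variance trend and robust empirical Bayes. Two-sided p-values were adjusted after Benjamini and Hochberg across every gene tested, and calls were made at 0.05. Fold changes on this scale understate those of low genes. The labels do not say that libraries came from separate animals, so p-values measure the spread between libraries. Calling was tested on simulated data with independent noise in each gene and library.

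The 9 genes, all lists (written from general knowledge) and the alternatives were chosen with earlier results of these data known. Named genes were all 9, and the called genes and the 2 most abundant of each further list. A ranking of all genes by likeness to the 9 is not reported here. Rph3a, Cplx1 and Prph were named after their values were seen. Alternatives were pseudocounts of 0.1 and 1, no filter, a minimum of 1 FPKM, median-of-ratios, non-acinar and endocrine scaling, the acinar share as covariate, no trend, the replicate number as a block, the libraries of the heatmaps and each library left out. Gene models were GENCODE of GRCm38. Promoter windows for Snap25, Vamp2, Syt7, Syt13 and Rims2, and protein sequences, were not used here.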

Additional observations from a re-analysis of the deposited data

Results flagged for a closer look

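Rab3a in flox17, at 30.0 FPKM, lay apart below the other Flox libraries, with a gap to its nearest neighbour of 0.875 of the group's range, above Dixon's limit at 95% for 4 samples. Rab3a in CKO8, at 46.2 FPKM, lay apart above the other cKO libraries, with a gap of 0.902 of the range. These are the chow libraries that the study's heatmaps leave out. A total of 36 groups of 4 were looked at for the 9 genes, and chance alone marks about 1 group in 20.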

How the results depend on the processing

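Depth is not in the tables, and 4 libraries a group cannot give an exact permutation p below 0.0286. In cKO against Flox, the count of the 9 genes called lower stayed at 2 with both pseudocounts and the minimum of 1 FPKM, was 1 without trend and robust fitting, 7 with the libraries of the heatmaps, and 0 with no filter, with median-of-ratios, non-acinar and endocrine scaling, with the acinar share as covariate and without flox20 and flox21 (with endocrine scaling too). Leaving out 1 library gave 0 to 7. The median log2 fold change of the 9 was -0.52 to -0.31 with 1 library left out, -0.069 after median-of-ratios scaling, -0.062 after non-acinar scaling, -0.027 after endocrine scaling, 0.13 with the covariate, and 0.013 without flox20 and flox21 and with endocrine scaling. The further exocytosis genes went from 9 called to 0 with no filter, with the covariate and without flox20 and flox21 (with endocrine scaling too), 1 with non-acinar and endocrine scaling, 2 with median-of-ratios scaling, 31 with the heatmap libraries and 0 to 31 with 1 library left out. The zymogen granule genes went from 0 to 1 with a minimum of 1 FPKM, 2 under each scaling, 6 with the heatmap libraries and 0 to 5 with 1 library left out.

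Signs turned in the chow comparison as follows, on the log2 scale. Snap25, Vamp2 and Rab3a came to 0.08, 0.19 and 0.078 with median-of-ratios scaling, to 0.089, 0.20 and 0.088 with non-acinar scaling, and with Rph3al to 0.13, 0.24, 0.13 and 0.021 with endocrine scaling. With the covariate Snap25 was 0.16, Vamp2 0.10, Syt7 0.16, Syt13 0.0086, Unc13a 0.13, Rims2 0.06, Rab3a 0.29, Rph3al 0.22 and Rab27a 0.15. Without flox20 and flox21 and with endocrine scaling, Snap25 was 0.17, Vamp2 0.20, Rims2 0.013, Rab3a 0.16 and Rph3al 0.14. These were all the reversals in that comparison, and the cause was not tested.

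In H-ins2-O against H-ins2-C, the count of the 9 called was 1, Snap25, without H-ins2-C2 and H-ins2-C3, with endocrine scaling or without it, and 0 in the other alternatives. The median log2 fold change was 0.43 to 1.43 with 1 library left out and -0.088 after endocrine scaling. The libraries of the heatmaps here leave out H-ins2-C1 and H-ins2-O4 and keep the acinar-rich H-ins2-C2 and H-ins2-C3. With them the log2 fold changes ran from 0.80 for Stx1a to 1.76 for Syt13, with limma adjusted p from 0.391 to 0.441. With 1 library left out, 0 further exocytosis genes and 0 zymogen granule genes were called. Of the further genes 1 was called with no filter, 3 without H-ins2-C2 and H-ins2-C3 and 4 with endocrine scaling besides, and of the zymogen granule genes 1 with the covariate and 1 without those libraries, scaled or not. Endocrine scaling turned Snap25 to -0.34, Stx1a to -0.31, Vamp2 to -0.058, Unc13a to -0.09, Rims2 to -0.019, Rab3a to -0.088 and Rph3al to -0.19, and the covariate turned Snap25 to -0.25 and Stx1a to -0.075. Without H-ins2-C2 and H-ins2-C3, Snap25 was -0.61, Stx1a -0.30, Vamp2 -0.041, Unc13a -0.19, Rims2 -0.17 and Rab3a -0.027, and with endocrine scaling besides -0.61, -0.30, -0.048, -0.20, -0.17 and -0.033. The alternatives that leave out a pair of libraries were chosen after the data were seen.

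With the replicate number as a block, 3 of the 9 genes were called lower in cKO islets, Syt7 besides Unc13a and Syt13, beside 289 genes higher and 2455 lower over the whole table, with 15 further exocytosis genes and 1 zymogen granule gene. In the HFD comparison the block gave 0 of the 9, with a median log2 fold change of 0.99. Libraries with the same number did not deviate together, with correlations of -0.215 to 0.122 in the chow table and -0.132 to 0.102 in the HFD table, so that the numbers do not pair them.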

Other observations

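Rph3a, the rabphilin paralogue of Rph3al, was present or near absent by library. It stood at 4.61, 0.0243, 0.0113 and 0.0118 FPKM in flox16, flox17, flox20 and flox21, at 4.04 to 6.05 FPKM in the 4 cKO libraries, and at no more than 0.0271 FPKM in the 8 HFD libraries. The log2 fold change in cKO islets was 2.56 (SE 0.82, limma adjusted p = 0.0747), and flox16 stood with the cKO libraries.

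Cplx1, a complexin that clamps the SNARE complex, was at 0.719, 0.532, 0.569 and 0.513 FPKM in H-ins2-O1 to H-ins2-O4 and listed at 0 in 3 of 4 H-ins2-C libraries, with 0.015 FPKM in H-ins2-C3. In the chow table it was listed at 0 in flox16, flox20, CKO8 and CKO38 and stood at 0.455, 0.415, 0.288 and 0.783 FPKM in flox17, flox21, CKO9 and CKO12. Its mean was under the limit for testing, and no fold is given. The neuron marker Prph was at 0.642, 0.723, 0.118 and 1.98 FPKM in flox17, flox21, CKO9 and CKO12. It was at 0 to 0.0141 FPKM in flox16, flox20, CKO8 and CKO38. Under HFD, Prph was at 2.00 and 2.39 FPKM in H-ins2-O1 and H-ins2-O2 and at most 0.135 FPKM in the H-ins2-C libraries. The part of neuronal RNA in the Cplx1 values was not tested.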
